A study of Mus musculus with 9 samples.

Results

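The genes described here are 36 genes of fast skeletal muscle, found by symbol in a table of counts for 55453 genes from 9 mouse aortae. They comprise 7 genes of the thick filament, 5 of the thin filament, 8 of the Z disc and its scaffold, 8 of the triad and of excitation, and 8 of muscle energy supply, and all 36 were abundant enough to be tested. Aortae came from C57BL/6J mice of 3 genotypes with 3 mice each. Itga8-Cre mice carry Itga8-CreERT2, a Cre recombinase that tamoxifen switches on and that is tied to the integrin gene Itga8, and Myh11-Cre mice carry Myh11-CreERT2, the same kind of recombinase tied to the smooth muscle myosin gene Myh11. Wild Type mice form the remaining group. The labels name the tissue as aorta, taken frozen and whole, and give no age, sex, tamoxifen treatment or dissection batch. The mouse number distinguishes the 3 mice of a genotype.

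Fast skeletal muscle fibres are built for short, strong contractions. Fast myosin heavy chains, with their light chains, pull on filaments of skeletal actin, while troponin on the thin filament opens the binding sites when calcium rises. The calcium is held in the sarcoplasmic reticulum and leaves it at the triad, where a voltage sensor of the surface membrane faces the ryanodine receptor. Creatine kinase, glycogen breakdown and glycolysis supply the ATP. The wall of the aorta is made of smooth muscle, endothelium and fibroblasts and has no fast fibres of its own, whereas skeletal muscle lies close to the vessel in the trunk. Heart muscle shares some of these genes, among them Ttn, Ckm, Tcap, Mb and Cox6a2, and uses its own forms in place of others.

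Promoters are shown as a description of the members, which were high and low in the same libraries and formed 2 sets described below. Whether promoter elements have a part in either pattern was not tested. RefSeq promoter sequence of the GRCm38.p6 build was found for 26 of the 36 members, in 29 promoters, and the 250 bases before each start were searched on both strands for the E-box CANNTG, bound by myogenic basic helix-loop-helix factors, for the MEF2 element and for the CArG box, which serum response factor binds. Capitals in the sequences mark these matches, which do not overlap in the 5 promoters printed.
Acta1 (chr8:123894776-123895025, minus strand): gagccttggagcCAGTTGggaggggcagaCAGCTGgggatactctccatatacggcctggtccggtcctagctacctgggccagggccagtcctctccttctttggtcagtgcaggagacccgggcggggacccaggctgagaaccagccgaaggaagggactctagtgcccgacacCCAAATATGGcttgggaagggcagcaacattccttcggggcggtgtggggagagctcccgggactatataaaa
Myh4 (chr11:67237562-67237811, plus strand): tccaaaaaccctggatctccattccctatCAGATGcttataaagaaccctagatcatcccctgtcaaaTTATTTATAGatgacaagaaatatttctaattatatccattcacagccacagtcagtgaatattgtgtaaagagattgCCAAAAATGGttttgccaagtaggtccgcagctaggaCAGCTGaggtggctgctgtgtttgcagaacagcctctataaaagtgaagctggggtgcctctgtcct
Myh1 (chr11:67199852-67200101, plus strand): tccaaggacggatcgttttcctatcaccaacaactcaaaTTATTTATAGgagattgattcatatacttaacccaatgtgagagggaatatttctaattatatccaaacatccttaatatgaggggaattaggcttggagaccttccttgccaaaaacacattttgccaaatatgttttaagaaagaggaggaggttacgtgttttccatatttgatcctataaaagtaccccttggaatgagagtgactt
Ttn (chr2:76982548-76982797, minus strand): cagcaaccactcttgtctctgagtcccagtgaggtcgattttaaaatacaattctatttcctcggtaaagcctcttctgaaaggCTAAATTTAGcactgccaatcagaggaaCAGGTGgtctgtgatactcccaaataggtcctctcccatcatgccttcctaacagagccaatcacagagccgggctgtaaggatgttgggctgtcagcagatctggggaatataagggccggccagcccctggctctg
Pgam2 (chr11:5803797-5804046, minus strand): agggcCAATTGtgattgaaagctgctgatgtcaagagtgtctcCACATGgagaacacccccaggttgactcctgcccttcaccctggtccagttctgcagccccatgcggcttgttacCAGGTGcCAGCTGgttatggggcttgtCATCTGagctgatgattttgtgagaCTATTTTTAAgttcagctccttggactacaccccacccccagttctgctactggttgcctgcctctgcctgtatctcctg
Myh4 and Myh1 hold a MEF2 element with the same letters, TTATTTATAG, and Acta1 holds a CArG box and no MEF2 element. A MEF2 element was found in 8 of the 29 member promoters (27.6%) and in 1.69% of the 32851 promoters of the table. The 8 belong to Myh1, Myh4 and Pvalb and to Xirp2, Klhl41, Ttn, Clcn1 and Pgam2. The E-box was found in 24 of 29 (82.8%) against 66.2% of all promoters, and the CArG box in 2 of 29 (6.90%) against 1.47%. These matches describe letters in a window and no binding was measured.

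Libraries held between 31419238 and 42497543 counts. Levels are given as CPM, counts scaled by TMM to a common library size. The members are ranked by level as CPM per kb of exon. Elsewhere CPM, sums of CPM and shares of counts are not corrected for exon length. Long genes such as Ttn, with 116825 exon bases, weigh more there. The tissue label was checked against smooth muscle: Acta2, the smooth muscle actin, ranged from 171 to 1038 CPM and Myh11 from 460 to 1371 CPM, so both were present in all 9 libraries. This shows presence and not what part of a library came from the vessel wall. Heart genes were present in all 9 as well, with the atrial and ventricular myosin Myh6 between 902 and 4411 CPM, and so was Ucp1 of brown fat, between 1348 and 4957 CPM.

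The 36 members together took from 0.210% to 4.26% of a library's counts. The Itga8-Cre mice 1, 2 and 3 had shares of 0.210%, 1.11% and 1.98%, the Myh11-Cre mice had 0.304%, 2.94% and 4.26%, and the Wild Type mice had 0.422%, 0.939% and 0.724%. Mice thus differed more within either Cre genotype than within Wild Type, and the 3 groups overlapped. Ttn alone made up a large part of this sum. Without it the shares were 0.0644%, 0.536% and 1.22% for Itga8-Cre, 0.0641%, 1.82% and 2.56% for Myh11-Cre, and 0.183%, 0.334% and 0.336% for Wild Type. Near-equal shares did not mean equal levels of each member. Of the 27234 counts left for Myh11-Cre 1, Acta1 held 167, whereas Mb and Tcap, which heart muscle shares, held 6098 and 4538. Of the 24807 left for Itga8-Cre 1, Acta1 held 773, Mb 4336 and Tcap 3521. In bulk RNA, fewer muscle cells and less RNA per muscle cell cannot be told apart.

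The order of the libraries was similar for the 36 members. Myh11-Cre 2 and Myh11-Cre 3 were the 2 highest libraries for all 36 genes, with Myh11-Cre 3 on top for 35 and Myh11-Cre 2 on top for Smpx. Itga8-Cre 1 and Myh11-Cre 1 were the 2 lowest libraries for 29 genes. The lowest library was Myh11-Cre 1 for 20 genes, Itga8-Cre 1 for 13 and Wild Type 1 for Tcap, Smpx and Cox6a2. The Myh11-Cre group therefore held the highest library of every member and the lowest library of 20 members. Below, values are listed for mice 1, 2 and 3 of each genotype in that order.

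**Figure D1:**
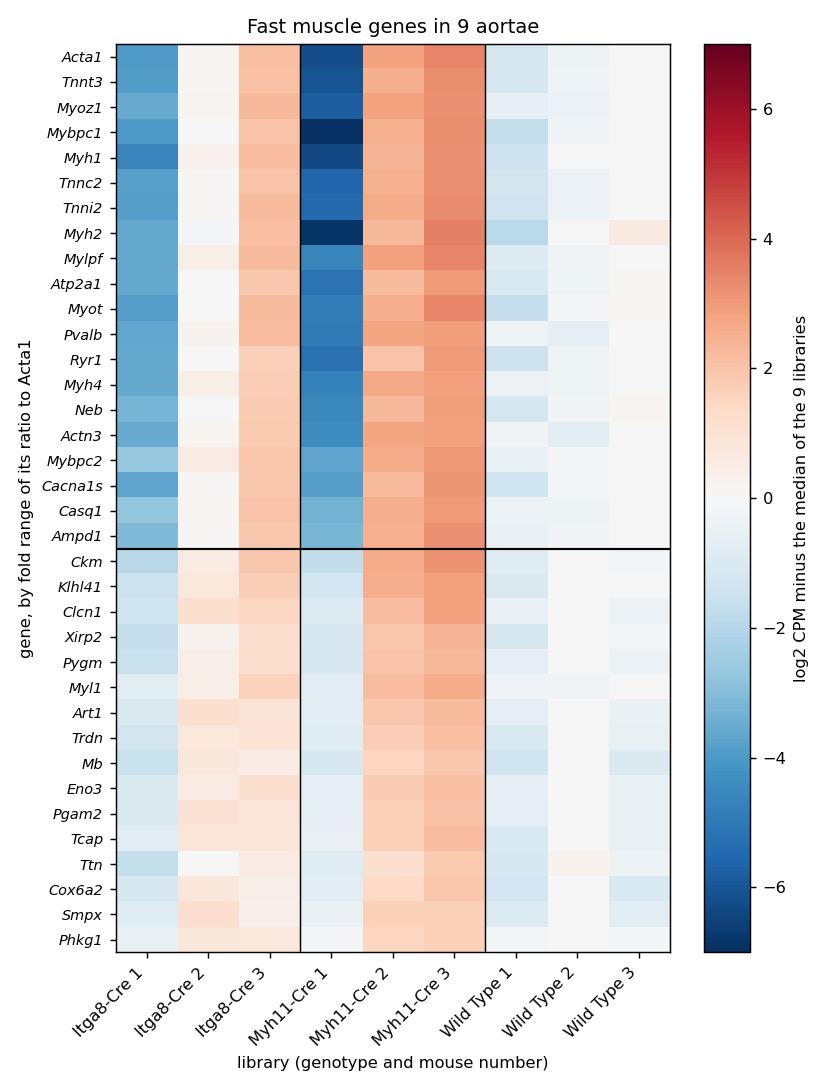
Heat map of the 36 genes (rows) in the 9 libraries (columns), coloured by log2 CPM minus the gene's median over the libraries, with rows ordered by how much the ratio to Acta1 varied and vertical lines between genotypes. Myh11-Cre 2 and 3 are the reddest columns in every row, and the deep blue of Itga8-Cre 1 and Myh11-Cre 1 fades below the horizontal line, which separates Acta1 and 19 genes from 16 others.

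The thick filament genes included the 2 members of widest span, Myh2 and Mybpc1. Myh4, the myosin of IIB fibres, the fastest type, stood at 24.7, 394 and 981 CPM in the Itga8-Cre mice, 11.2, 1866 and 2219 CPM in the Myh11-Cre mice, and 224, 239 and 299 CPM in the Wild Type mice. Myh1, the myosin of IIX fibres, stood at 11.3, 335 and 1198 CPM in the Itga8-Cre mice, 3.39, 1391 and 2466 CPM in the Myh11-Cre mice, and 102, 269 and 273 CPM in the Wild Type mice. Myh2, the myosin of the more oxidative IIA fibres, stood at 14.5, 155 and 753 CPM in the Itga8-Cre mice, 1.48, 819 and 1959 CPM in the Myh11-Cre mice, and 47.0, 172 and 262 CPM in the Wild Type mice. The Wild Type libraries lay inside the range of either Cre genotype for all 3 myosins. Between its highest and lowest library Myh2 differed 1326-fold, the widest span of the 36 members, whereas within Wild Type it differed 5.58-fold. The span of Mybpc1 was 1293-fold. In Myh11-Cre 1, the lowest library of both, Myh2 had 54 counts and Mybpc1 had 13, so the order of these 2 spans is uncertain.

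The light chains Mylpf and Myl1, both of fast fibres, had very different spans. Mylpf, the regulatory light chain, stood at 3.77, 61.5 and 210 CPM in the Itga8-Cre mice, 1.83, 331 and 490 CPM in the Myh11-Cre mice, and 25.0, 39.3 and 45.8 CPM in the Wild Type mice. Myl1, the essential light chain, stood at 40.5, 97.4 and 217 CPM in the Itga8-Cre mice, 42.7, 318 and 431 CPM in the Myh11-Cre mice, and 60.7, 59.8 and 70.9 CPM in the Wild Type mice. The lowest libraries thus kept Myl1 near 40 CPM while Mylpf was under 4 CPM there, and the whole span was 10.6-fold for Myl1 and 267-fold for Mylpf. For Myl1, 83.4% of its 75-base stretches occur nowhere else in the annotated transcripts, the pseudogene Mylf-ps holding copies of the rest. Mybpc1, a myosin-binding protein C of skeletal muscle, stood at 3.03, 49.7 and 191 CPM in the Itga8-Cre mice, 0.356, 266 and 460 CPM in the Myh11-Cre mice, and 15, 40.9 and 48.3 CPM in the Wild Type mice. Its fast counterpart Mybpc2 ranged from 2.65 CPM (Myh11-Cre 1) to 278 CPM (Myh11-Cre 3).

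All 5 thin filament genes spanned more than 100-fold. Acta1 (ENSMUSG00000031972.5, chromosome 8, 123891769 to 123894751, minus strand), the actin of skeletal thin filaments, stood at 22.1, 384 and 1501 CPM in the Itga8-Cre mice, 4.57, 2383 and 3636 CPM in the Myh11-Cre mice, and 145, 273 and 343 CPM in the Wild Type mice. Its libraries differed 796-fold within Myh11-Cre, 67.9-fold within Itga8-Cre and 2.36-fold within Wild Type. Tnnt3, the troponin T of fast fibres that anchors the complex to tropomyosin, stood at 10.2, 168 and 642 CPM in the Itga8-Cre mice, 2.35, 907 and 1452 CPM in the Myh11-Cre mice, and 66.1, 123 and 154 CPM in the Wild Type mice. Acta1 and Tnnt3 gave the same order of the 9 libraries. Tnni2, the inhibitory subunit, stood at 5.0, 75.1 and 325 CPM in the Itga8-Cre mice, 1.67, 438 and 704 CPM in the Myh11-Cre mice, and 27.1, 54.0 and 71.2 CPM in the Wild Type mice. Tnnc2, the subunit that binds calcium, stood at 5.09, 74.5 and 285 CPM in the Itga8-Cre mice, 1.53, 406 and 647 CPM in the Myh11-Cre mice, and 29.8, 54.5 and 71.3 CPM in the Wild Type mice. Tnni2 and Tnnc2, encoded on chromosomes 7 and 2, thus had the same span, 422-fold. Neb, the giant ruler of the thin filament, stood at 27.9, 264 and 904 CPM in the Itga8-Cre mice, 11.7, 1248 and 2024 CPM in the Myh11-Cre mice, and 113, 229 and 288 CPM in the Wild Type mice.

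The Z disc, where thin filaments of neighbouring sarcomeres are crosslinked, held genes of both wide and narrow span. Actn3, the crosslinker of fast fibres, stood at 3.26, 41.8 and 133 CPM in the Itga8-Cre mice, 1.78, 249 and 268 CPM in the Myh11-Cre mice, and 31.8, 21.4 and 37.2 CPM in the Wild Type mice. Myoz1 and Myot, Z disc proteins that bind alpha-actinin, ranged from 0.192 to 96.8 CPM and from 0.575 to 171 CPM, each lowest in Myh11-Cre 1 and highest in Myh11-Cre 3. These 3 genes spanned from 151-fold to 505-fold. Ttn, the elastic filament of both skeletal and heart muscle, stood at 1598, 5006 and 7381 CPM in the Itga8-Cre mice, 2787, 10898 and 17859 CPM in the Myh11-Cre mice, and 2302, 5835 and 3865 CPM in the Wild Type mice. Tcap, which caps titin at the Z disc, stood at 101, 315 and 321 CPM in the Itga8-Cre mice, 124, 559 and 800 CPM in the Myh11-Cre mice, and 84.0, 177 and 122 CPM in the Wild Type mice. For Ttn and Tcap the low libraries lay far less low, with spans of 11.2-fold and 9.52-fold. Xirp2, an actin-binding protein of striated muscle, stood at 44.4, 165 and 336 CPM in the Itga8-Cre mice, 64.7, 517 and 748 CPM in the Myh11-Cre mice, and 65.8, 141 and 130 CPM in the Wild Type mice. Smpx, a small cytoskeletal protein of striated muscle, stood at 14.2, 57.8 and 32.4 CPM in the Itga8-Cre mice, 18.1, 82.0 and 81.7 CPM in the Myh11-Cre mice, and 12.9, 25.4 and 14.6 CPM in the Wild Type mice. Smpx was one of the genes higher in Itga8-Cre 2 than in Itga8-Cre 3. Klhl41, a kelch protein that stabilises the sarcomere, ranged from 5.60 CPM (Itga8-Cre 1) to 113 CPM (Myh11-Cre 3).

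Calcium release and uptake genes of the triad followed Acta1 more closely than did the accessory genes. Atp2a1, the calcium pump SERCA of fast fibres, stood at 17.6, 214 and 791 CPM in the Itga8-Cre mice, 5.88, 1008 and 1711 CPM in the Myh11-Cre mice, and 103, 173 and 226 CPM in the Wild Type mice. Ryr1, the release channel, stood at 9.06, 110 and 349 CPM in the Itga8-Cre mice, 2.98, 433 and 853 CPM in the Myh11-Cre mice, and 40.7, 90.7 and 111 CPM in the Wild Type mice. Cacna1s, the voltage sensor that opens it, stood at 1.97, 26.6 and 92.3 CPM in the Itga8-Cre mice, 1.75, 116 and 215 CPM in the Myh11-Cre mice, and 9.42, 22.5 and 25.1 CPM in the Wild Type mice. Pump, channel and sensor were all higher in Wild Type than in Itga8-Cre 1 and Myh11-Cre 1 and lower than in Itga8-Cre 3. Casq1, which stores calcium in the reticulum, stood at 3.52, 25.6 and 91.0 CPM in the Itga8-Cre mice, 2.30, 137 and 186 CPM in the Myh11-Cre mice, and 18.2, 18 and 23.2 CPM in the Wild Type mice. Pvalb, the calcium buffer that speeds relaxation in fast fibres, stood at 2.40, 34.9 and 133 CPM in the Itga8-Cre mice, 1.01, 198 and 228 CPM in the Myh11-Cre mice, and 24.3, 18.7 and 29.7 CPM in the Wild Type mice. The remaining triad and membrane genes had narrower spans. Trdn, which ties calsequestrin to the release channel, ranged from 15.9 to 165 CPM. Clcn1, the chloride channel that steadies the membrane potential, ranged from 0.858 to 16.5 CPM. Art1, an ADP-ribosyltransferase on the surface of muscle cells, stood at 6.26, 28.2 and 23.8 CPM in the Itga8-Cre mice, 7.50, 47.6 and 59.0 CPM in the Myh11-Cre mice, and 8.05, 12.9 and 9.32 CPM in the Wild Type mice.

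Most energy genes had narrow spans. Ckm, the muscle creatine kinase, stood at 50.4, 291 and 711 CPM in the Itga8-Cre mice, 57.8, 1148 and 1737 CPM in the Myh11-Cre mice, and 109, 193 and 181 CPM in the Wild Type mice. Eno3, the muscle enolase of glycolysis, stood at 45, 136 and 193 CPM in the Itga8-Cre mice, 57.2, 314 and 388 CPM in the Myh11-Cre mice, and 59.7, 90.0 and 62.1 CPM in the Wild Type mice. Pgam2, the muscle phosphoglycerate mutase, stood at 18.8, 75.8 and 69.0 CPM in the Itga8-Cre mice, 24.8, 121 and 156 CPM in the Myh11-Cre mice, and 23.6, 38.0 and 26.0 CPM in the Wild Type mice. All 3 were still clearly counted in the libraries where Acta1 was lowest. Pygm, the glycogen phosphorylase of muscle, stood at 37.0, 153 and 248 CPM in the Itga8-Cre mice, 50.4, 437 and 529 CPM in the Myh11-Cre mice, and 68.5, 111 and 83.3 CPM in the Wild Type mice. Phkg1, the catalytic subunit of the kinase that activates it, stood at 9.72, 24.2 and 23.6 CPM in the Itga8-Cre mice, 12.6, 39.1 and 44.6 CPM in the Myh11-Cre mice, and 13.0, 14.0 and 13.2 CPM in the Wild Type mice. Phkg1 had the narrowest span of all members, 4.59-fold, and it overlaps Chchd2 on the same strand, so its counts are uncertain. Ampd1, the AMP deaminase of skeletal muscle, was the exception with a span of 85.4-fold: it stood at 0.743, 6.67 and 23.9 CPM in the Itga8-Cre mice, 0.684, 36.2 and 58.4 CPM in the Myh11-Cre mice, and 4.55, 5.47 and 6.35 CPM in the Wild Type mice. Of the oxidative genes, Mb, the oxygen store myoglobin, stood at 124, 632 and 511 CPM in the Itga8-Cre mice, 167, 1039 and 1340 CPM in the Myh11-Cre mice, and 139, 362 and 182 CPM in the Wild Type mice. Cox6a2, a cytochrome oxidase subunit of skeletal and heart muscle, stood at 22.4, 87.4 and 65.7 CPM in the Itga8-Cre mice, 29.4, 131 and 190 CPM in the Myh11-Cre mice, and 19.2, 49.5 and 24.0 CPM in the Wild Type mice. Both were higher in mouse 2 than in mouse 3 of Itga8-Cre and of Wild Type, the reverse of Acta1.

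Per kb of exon, the median level over the 9 libraries was highest for Mb at 242 CPM per kb, followed by Acta1 at 223, Tcap at 187, Tnnt3 at 97.3 and Tnnc2 at 89.1. The lowest was Clcn1 at 0.414 CPM per kb. Mb and Acta1 each spanned more than their distance from each other, so their order is that of the medians alone. Myh4, Myh1 and Myh2 had medians of 49.7, 42.9 and 24.1 CPM per kb.

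Set against Acta1 within each library, the members fell into 2 sets. For each gene, the ratio of its CPM per kb to that of Acta1 was compared over the 9 libraries, and likewise its ratio to Myh6, the main myosin of the mouse heart, a reference chosen after the values were seen. For 19 members the ratio to Acta1 varied less, by a factor of 1.35 for Tnnt3 up to 9.85 for Ampd1 (median 3.39), while their ratio to Myh6 varied by a factor of 49.7 to 763. These are Tnnt3, Myoz1, Mybpc1, Myh1, Tnnc2, Tnni2, Myh2, Mylpf, Atp2a1, Myot, Pvalb, Ryr1, Myh4, Neb, Actn3, Mybpc2, Cacna1s, Casq1 and Ampd1. For the other 16 members the ratio to Myh6 varied less, by a factor of 2.77 for Smpx up to 17.5 for Ckm (median 4.70), while their ratio to Acta1 varied by a factor of 26.7 to 225. These are Ckm, Klhl41, Clcn1, Xirp2, Pygm, Myl1, Art1, Trdn, Mb, Eno3, Pgam2, Tcap, Ttn, Cox6a2, Smpx and Phkg1. The split is a description of the values that made it and carries no test. The 2 references differ in span, 796-fold for Acta1 and much less for Myh6. Members of the first set spanned 81.1-fold or more and those of the second 34.5-fold or less. A gene of narrow span therefore falls in the second set whether or not it follows Myh6.

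By role, the first set holds 6 of the 7 thick filament genes and all 4 other thin filament genes. It also holds 3 of the Z disc and scaffold genes (Actn3, Myoz1 and Myot), 5 of the triad genes (Atp2a1, Ryr1, Cacna1s, Casq1 and Pvalb) and 1 energy gene (Ampd1). The second holds Myl1 of the thick filament, Ttn, Tcap, Xirp2, Smpx and Klhl41 of the Z disc and scaffold, Trdn, Clcn1 and Art1 of the triad, and the other 7 energy genes. Myh6 itself stood at 1159, 3832 and 1227 CPM in the Itga8-Cre mice, 1745, 4411 and 4182 CPM in the Myh11-Cre mice, and 926, 2661 and 902 CPM in the Wild Type mice. Mouse 2 was thus the highest for Myh6 in each genotype, whereas for Acta1 mouse 3 was the highest in each. Myh11-Cre 1, lowest of all for Acta1, lay above 4 libraries for Myh6. Of the 8 members whose promoter held a MEF2 element, 3 are in the first set and 5 in the second.

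**Figure D2:**
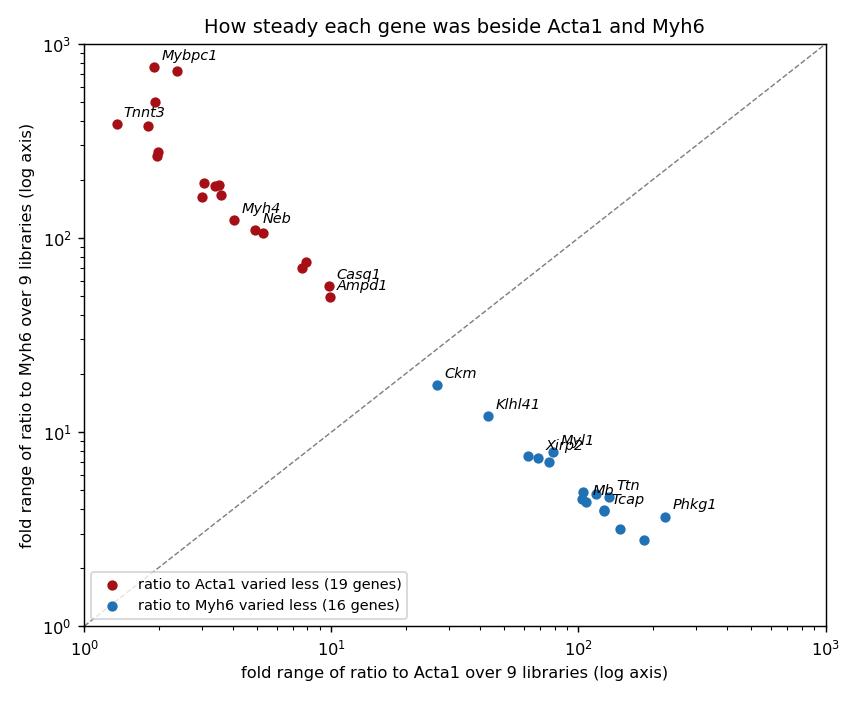
Each point is 1 of 35 genes, placed by the fold range over 9 libraries of its ratio to Acta1 (x, log axis) and of its ratio to Myh6 (y, log axis), with a dashed line where both are equal. The 19 genes above the line reach at most 9.85 on x and the 16 below it start at 26.7.

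**Figure D3:**
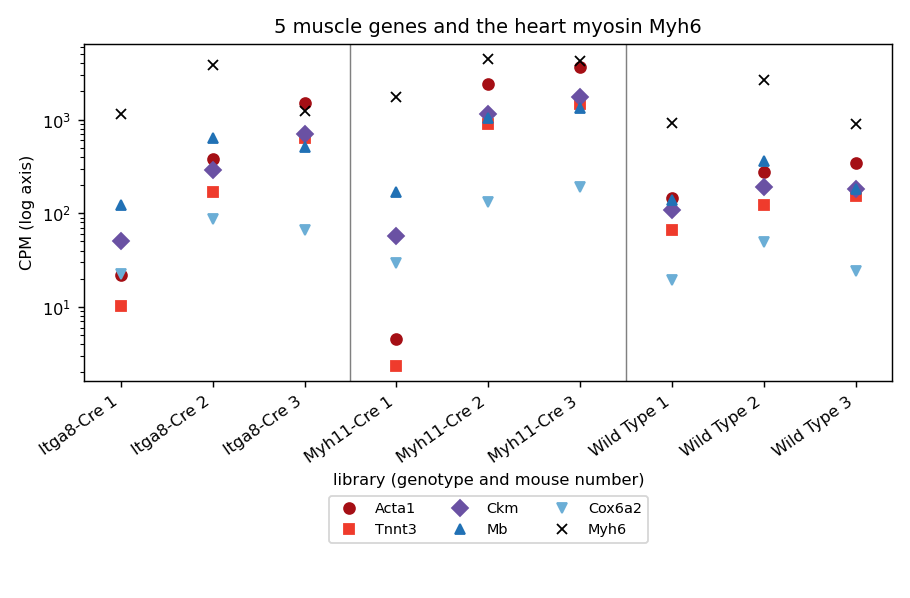
CPM (log axis) of Acta1, Tnnt3, Ckm, Mb, Cox6a2 and the heart myosin Myh6 in the 9 libraries, 1 point a library, with grey lines between genotypes. Acta1 and Tnnt3 drop to 4.57 and 2.35 CPM in Myh11-Cre 1, where Mb stays at 167 CPM and Cox6a2 at 29.4 CPM.

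The make-up of the fast myosins was compared within each library, since a share does not depend on how much muscle RNA the library holds. Myh2, Myh1, Myh4 and the perinatal Myh8 lie in that order on the plus strand of chromosome 11 (GRCm38), at 67171027 to 67197517, 67200052 to 67224575, 67238029 to 67260446 and 67277124 to 67308634. They share sequence: 83.7%, 83.4%, 90.3% and 87.1% of their 75-base stretches are unique among annotated transcripts. Of the summed counts of Myh4, Myh1 and Myh2, Myh4 took 49.0%, 44.6% and 33.5% for Itga8-Cre, 69.8%, 45.8% and 33.4% for Myh11-Cre, and 60.1%, 35.2% and 35.9% for Wild Type. Myh1 took 22.3%, 37.9% and 40.9% for Itga8-Cre, 21.1%, 34.1% and 37.1% for Myh11-Cre, and 27.3%, 39.6% and 32.7% for Wild Type. Mouse 1, which had the fewest fast myosin counts of each genotype, had the highest Myh4 share and the lowest Myh1 share of its genotype. Myh2 took 28.7%, 17.5% and 25.7% for Itga8-Cre, 9.17%, 20.1% and 29.5% for Myh11-Cre, and 12.6%, 25.3% and 31.5% for Wild Type. In Myh11-Cre 1 these shares rest on 589 counts, with a 95% Wilson interval for Myh4 of 66.0% to 73.3%, which covers counting error only.

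The shares were also compared between genotypes. Itga8-Cre had a mean Myh4 share of 42.3% ± 8.0 (SD, n = 3), Myh11-Cre of 49.6% ± 18.5 and Wild Type of 43.7% ± 14.2. The 9 comparisons of the 3 shares gave exact two-sided permutation p-values of 0.5 to 0.9, each 0.9 after Benjamini-Hochberg adjustment, where 0.1 is the smallest that 3 against 3 mice allow, so no difference could have passed 0.05. The sign of these differences turned when single libraries were left out: without Myh11-Cre 1, the Myh4 share in Myh11-Cre lay 4.14 percentage points below Wild Type in place of 5.93 above.

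**Figure D4:**
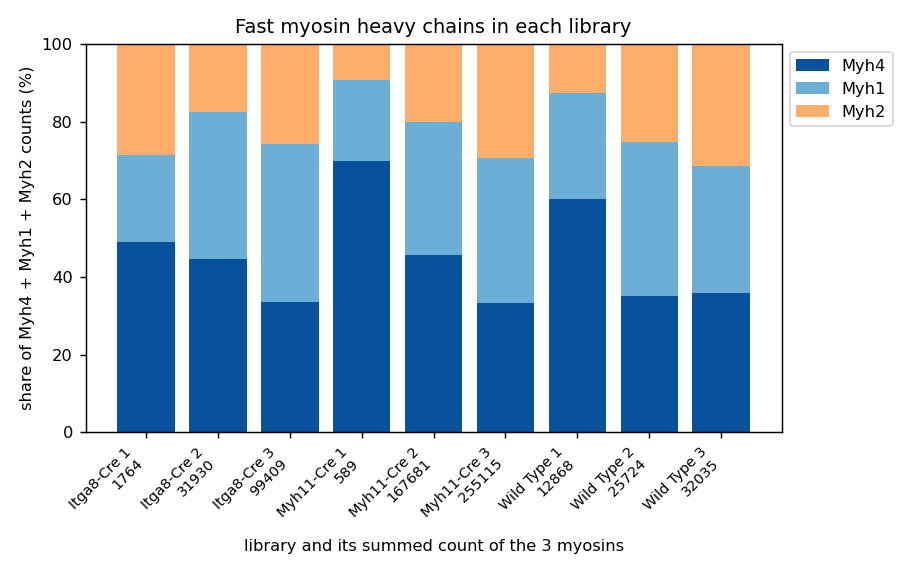
Stacked bars of the share (%) of Myh4, Myh1 and Myh2 in their summed counts, 1 bar a library, with the summed count under each library's name. Myh4 takes between 33.4% (Myh11-Cre 3) and 69.8% (Myh11-Cre 1).

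Myh8, the myosin of perinatal fibres and no member of the list, stood apart in a single library. It had 22479 counts in Myh11-Cre 2 and between 9 and 38 counts in the other 8 libraries. This was 546 CPM against 0.261 to 1.09 CPM. Myh8 made up 11.8% (95% Wilson interval 11.7% to 12.0%) of the counts of Myh4, Myh1, Myh2 and Myh8 together in Myh11-Cre 2, and 0.0149% to 2.97% in the others. Myh3, the embryonic myosin, did not exceed 0.417 CPM in any library. Myh8 had a log2 fold change of 8.63 between Myh11-Cre and Wild Type (edgeR, adjusted p = 0.225).

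Against Wild Type, the fast muscle genes had higher means in Myh11-Cre, but the groups overlapped and no gene passed the edgeR test. Mean Acta1 was 2008 ± 1844 CPM (SD, n = 3) against 254 ± 100 CPM, 7.91-fold higher. Mean Tcap was 494 ± 343 CPM against 128 ± 47.0 CPM, 3.87-fold higher. In each case Myh11-Cre 2 and 3 lay above the Wild Type libraries, while Myh11-Cre 1 lay below all 3 for Acta1 and among them for Tcap. Beside them, the summed heart markers ran from 3652 to 10825 CPM in the Myh11-Cre mice and from 1932 to 5587 CPM in the Wild Type mice, and their part in the difference was not tested.

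In edgeR's quasi-likelihood test over 19412 genes, 0 of the 36 members had an adjusted p under 0.05 for Myh11-Cre against Wild Type, as had 0% of all genes tested. At an unadjusted p under 0.05 stood 13 members, against 16.4% of all genes. They are Myl1, Tcap, Smpx, Klhl41, Trdn, Clcn1, Art1, Eno3, Pgam2, Pygm, Phkg1, Mb and Cox6a2, all of the set that was steadier beside Myh6. That set was made from these same values and holds the genes of narrow span, so the match is built in. Its SEs ran from 0.47 (Phkg1) to 1.15 (Ckm), against 1.35 (Casq1) to 1.83 (Myh2) in the set steadier beside Acta1. The 5 members nearest to the threshold were Tcap (log2 fold change 1.95, SE 0.68), Smpx (1.78, SE 0.65), Phkg1 (1.26, SE 0.47), Cox6a2 (1.92, SE 0.72) and Eno3 (1.84, SE 0.70), with edgeR adjusted p-values of 0.247, 0.253, 0.260, 0.262 and 0.265. Acta1, with the highest log2 fold change of the members, 2.98, had an SE of 1.79 and an adjusted p of 0.422 by edgeR. Log2 fold changes of the 36 members ran from 1.26 to 2.98 with a median of 2.44, beside a median of 0.01 for all genes tested. The size depended on the fit: the median was 1.00 with limma and 1.11 with mouse number as a block. Limma gave 0.46 for Acta1, 0.46 for Myh4 and 0.40 for Atp2a1, where the block gave 0.98, 0.60 and 0.68. All 36 were positive, but members move together across the same libraries, so they are not 36 separate observations. For no member did all 3 Myh11-Cre libraries lie above, or all below, the 3 Wild Type libraries, which was so for 11.3% and 14.7% of all genes. DESeq2 called 3 members higher, Tcap (adjusted p = 0.0305), Smpx (0.0455) and Cox6a2 (0.0492), and limma called 0. DESeq2 called 4.42% of all genes in either direction. Of the 829 it called among the genes that edgeR tested, 251 were higher.

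Itga8-Cre aortae also had higher means than Wild Type, and the groups overlapped here too. Markers of other tissues differed in their means as well. All 12 heart markers had positive log2 fold changes (median 0.67), and 10 of 12 smooth muscle markers had negative ones (median -0.63). For 5 smooth muscle markers, Acta2, Myh11, Smtn, Lmod1 and Mylk, all 3 Itga8-Cre libraries lay below the 3 Wild Type libraries, which was so for 5.37% of all genes. Their part in the members' differences was not tested. Mean Acta1 was 636 ± 771 CPM (SD, n = 3) against 254 ± 100 CPM, 2.50-fold higher, with Itga8-Cre 1 below, Itga8-Cre 2 and 3 above all Wild Type libraries. Mean Smpx was 34.8 ± 21.9 CPM against 17.6 ± 6.77 CPM, 1.97-fold higher. The direction of the member median rested on Itga8-Cre 3. Without that library the median log2 fold change turned from 0.98 to -0.30, and that of Acta1 from 1.32 to -0.34. The median was 0.05 with limma and -0.28 with mouse number as a block. Only some members were followed gene by gene. Of these, Ckm, Eno3, Pgam2 and Cox6a2 kept a positive value whichever library was left out, the lowest being 0.07, 0.34, 0.60 and 0.52. Acta1, Myh4, Mylpf and Atp2a1 did not.

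By edgeR, 0 of 36 members were called for Itga8-Cre against Wild Type, as were 0% of all genes. At an unadjusted p under 0.05 stood 0 members, against 6.78% of all genes. DESeq2 called 0 members and 0.165% of all genes, and limma called 0 members. Log2 fold changes ran from 0.22 for Ttn to 1.41 for Tnni2, all positive, with the median of 0.98 beside 0.04 for all genes. The members nearest to the threshold were Smpx (log2 fold change 0.98, SE 0.64), Tcap (0.94, SE 0.66), Pgam2 (0.90, SE 0.67), Cox6a2 (0.92, SE 0.70) and Art1 (0.95, SE 0.73), with edgeR adjusted p-values from 0.713 to 0.737. Groups overlapped for every member, whereas the 3 Itga8-Cre libraries lay above all Wild Type libraries for 5.76% of genes and below them for 5.37%.

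Between the Cre genotypes, the members had lower means in Itga8-Cre than in Myh11-Cre, with overlapping groups and no gene past the edgeR threshold. Markers of other tissues lay on the same side: log2 fold changes were negative for 12 of 12 heart markers (median -0.63), 12 of 12 smooth muscle markers (-0.69), 11 of 11 brown fat markers (-0.18) and 11 of 11 slow fibre genes (-1.06). Their part in the members' differences was not tested. Mean Ttn was 4662 ± 2907 CPM against 10515 ± 7543 CPM (SD, n = 3), with Myh11-Cre 1 lower than Itga8-Cre 2 and 3. Mean Phkg1 was 19.2 ± 8.21 CPM against 32.1 ± 17.1 CPM. Groups overlapped for all 36 members, whereas the groups were separate with Itga8-Cre higher for 9.65% of genes and lower for 3.07%. EdgeR called 0 of 36 members and 0% of all genes, and at an unadjusted p under 0.05 it had 0 members against 9.48% of genes. DESeq2 called 0 members and 0.109% of all genes, and limma called 0 members. Log2 fold changes ran from -1.66 for Acta1 to -0.74 for Phkg1, with a median of -1.40 beside 0.01 for all genes. Nearest to the threshold were Phkg1 (-0.74, SE 0.47), Ttn (-1.17, SE 0.74), Tcap (-1.01, SE 0.66), Eno3 (-1.02, SE 0.68) and Myl1 (-1.16, SE 0.78), with edgeR adjusted p-values from 0.618 to 0.639. The 3 comparisons share their libraries in pairs, so their values for a gene are not independent.

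**Figure D5:**
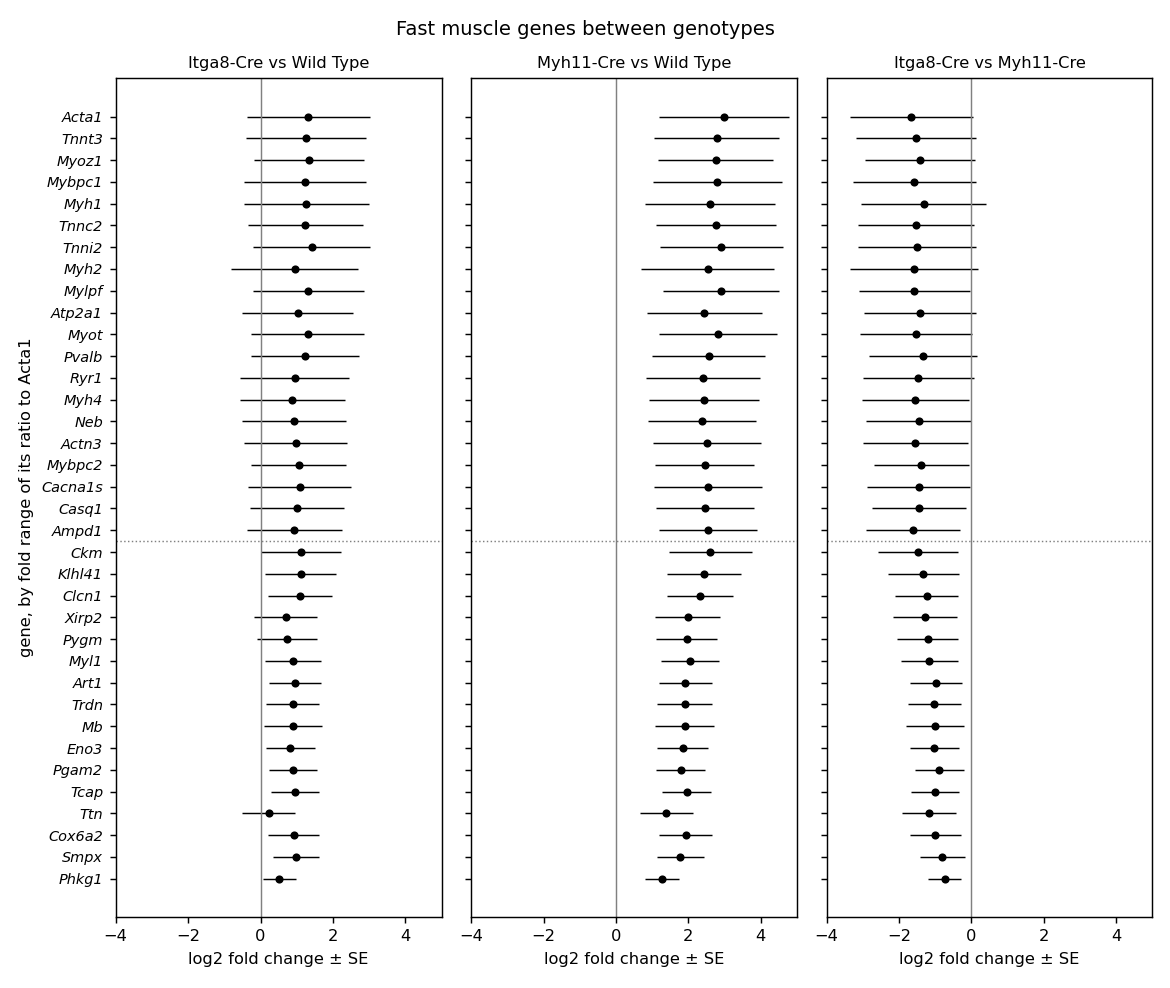
Log2 fold change ± SE (x) of the 36 genes (rows) in the 3 comparisons of genotypes, from edgeR. All points lie right of 0 in the first and second panels and left of it in the third, and the error bars are widest for Acta1 and the genes above the dotted line, the set steadier beside Acta1.

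Genes of the same pathways outside the 36 were counted in lists. EdgeR called 0 genes of every list in every comparison. At an unadjusted p under 0.05 in Myh11-Cre against Wild Type stood 10 of the 23 further muscle genes, 3 of 11 slow fibre genes, 0 of 11 myogenic genes, 1 of 7 junction genes (Chrna1), 4 of 12 shared energy genes, 4 of 12 heart markers, 2 of 11 brown fat markers, 2 of 12 smooth muscle markers and Myh8, the only developmental myosin tested. These counts stand beside 16.4% of all genes. In Itga8-Cre against Wild Type only 2 smooth muscle markers (Myh11 and Smtn, both with lower means) did, beside 6.78% of all genes, and between the Cre genotypes only Mybph, Chrna1 and Myh8, beside 9.48%. Of 23 tested further genes of fast or striated muscle, all 23 had positive log2 fold changes in Myh11-Cre against Wild Type (median 1.64), as had 21 in Itga8-Cre (median 0.66). Abundant genes of this list were Cmya5, a sarcomere-associated protein of 99.2 to 1018 CPM, and Myom1 of the M band, at 122 to 523 CPM, each highest in Myh11-Cre 3. Of 11 slow fibre genes, 10 were positive in Myh11-Cre (median 1.30) and 8 in Itga8-Cre (median 0.53). Myh7, the slow myosin that ventricles also use, stood at 2.46, 35.2 and 179 CPM in the Itga8-Cre mice, 0.520, 253 and 479 CPM in the Myh11-Cre mice, and 3.97, 57.6 and 54.2 CPM in the Wild Type mice. Actn2 and Casq2, shared by slow fibres and heart, ranged from 42.4 to 333 CPM and from 34.9 to 159 CPM. Myh7 thus had the wide span of the Acta1 set, and Actn2 and Casq2 the narrow span of the other.

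Of the myogenic genes, Pax7, Myod1 and Myf6 were scarce, although the 13 genes of that list together summed to 157 to 355 CPM in the Myh11-Cre mice. The satellite cell factor Pax7 did not exceed 0.729 CPM, the myogenic factor Myod1 did not exceed 1.82 CPM and Myf6, the factor kept in mature fibres, ranged from 0.0274 CPM (Myh11-Cre 1) to 7.40 CPM (Myh11-Cre 3). Mef2c and Mef2d, which other cell types also express, ranged from 55.7 to 189 and from 81.2 to 103 CPM. The 11 tested myogenic genes had a median log2 fold change of 2.20 in Myh11-Cre against Wild Type (9 positive) and 0.57 in Itga8-Cre (8 positive). Of the junction genes, Lrp4, Colq and Dok7 were the most abundant, with at most 27.3, 14.7 and 8.20 CPM. The 7 tested had medians of 0.98 and 0.27. Of the energy genes that other tissues share, Aldoa, Ldha and Slc25a4 ranged from 1170 to 3080, from 442 to 1142 and from 372 to 1249 CPM, and Ckmt2, a mitochondrial creatine kinase of striated muscle, from 44.2 to 497 CPM. The 12 genes had median log2 fold changes of 0.60 in Myh11-Cre, where Ckmt2 had the highest, 1.99, and 0.31 in Itga8-Cre. In Myh11-Cre against Wild Type, DESeq2 called 1 of these 12, the adenine nucleotide carrier Slc25a4 (adjusted p = 0.0408).

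Markers of other tissues also varied between libraries. All 12 heart markers were above 0 in every library, and their summed level ran from 2502 to 10152 CPM for Itga8-Cre, 3652 to 10825 CPM for Myh11-Cre and 1932 to 5587 CPM for Wild Type. Their median log2 fold change was 1.25 in Myh11-Cre against Wild Type (12 of 12 positive, 0 called by edgeR, and Sln called by DESeq2 with an adjusted p of 0.0455) and 0.67 in Itga8-Cre (12 of 12 positive, 0 called). The atrial hormone gene Nppa alone ran from 18.4 to 1897 CPM, and Actc1, the heart actin, from 189 to 730 CPM. Brown fat markers, of which Zic1 was at 0 in Wild Type 3, summed to 2622 to 8186 CPM for Itga8-Cre, 3828 to 7679 CPM for Myh11-Cre and 3338 to 4288 CPM for Wild Type. Their median log2 fold changes were 0.24 and 0.14, with Ucp1, Cidea and Cox8b the most abundant. The 12 smooth muscle markers summed to 1554 to 2061 CPM for Itga8-Cre, 1281 to 3743 CPM for Myh11-Cre and 2378 to 3923 CPM for Wild Type, with medians of -0.09 in Myh11-Cre and -0.63 in Itga8-Cre. DESeq2 called 1 of them, Des, the desmin that striated muscle also uses (adjusted p = 0.0492), which ranged from 99.6 to 729 CPM. The part of heart, fat and vessel tissue in the members' differences was not tested.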

How the data were processed

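Polyadenylated RNA of 9 aortae was sequenced as single 75 nt reads from a strand-marking kit, per the labels. Every value comes from whole-number counts by gene symbol, as the authors deposited them. The submitters' processing notes name the build GRCm38.p6 and, without roles or order, STAR 2.7.0f, featureCounts, Subread 1.6.4, fastp 0.20.0, DESeq2 and Salmon 0.13.1. The annotation and the strand setting of counting were not given in the sources used here. Overlapping genes (among the members Tnnc2 with Ube2c, Atp2a1 with Rabep2, Cox6a2 with Itgad) therefore have uncertain counts.

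Genes passing filterByExpr (19412 of 55453) were fitted in R 4.3.3 with edgeR 4.0.16 (TMM, robust quasi-likelihood test, group means of all 9 libraries, common biological coefficient of variation 0.294), with p-values adjusted by Benjamini-Hochberg over every tested gene at a threshold of 0.05. DESeq2 1.42.0 and limma 3.58.1 (voom) were alternatives, as were other size factors, no filter, the 2 groups alone, mouse number as a block, and leaving out each library. Exon lengths, positions and unique 75-base stretches came from GENCODE M21 (GRCm38). Wilson intervals cover 95%. The pipeline was run on simulated data with known changes, where the only condition set was that most of them kept their direction. P-values of edgeR rest on a spread between mice of the same genotype, estimated in 1 fit of all 9 libraries and shared by the 3 genotypes. The genotypes differed in spread: Acta1 varied 796-fold within Myh11-Cre and 2.36-fold within Wild Type.

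Members and lists were chosen with earlier results of these data known. Values in every library are given for members fixed by name and for the 5 with the smallest p in each comparison. Of other lists, up to 3 genes with the highest mean CPM and any called gene are named, apart from some that are not reported here. Chrna1, Smtn, Mybph, Myh8, Myh3, Pax7, Myod1, Myf6 and genes called by DESeq2 alone were named after their values were seen.

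The main test did not pair libraries by mouse number, since the labels name no source that same-numbered mice share. Residuals of same-numbered pairs of libraries had r above 0.1 in 5 of 9 and positive in all 9. Pairs of unlike number ran from -0.355 to 0.24 and were mostly negative. Of the 9 libraries, 5 resembled their own number most in both other genotypes. Whether same-numbered mice share a factor was not tested, and the main test leaves out any such factor. Results with mouse number as a block are given below.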

Additional observations from a re-analysis of the deposited data

How the results depend on the processing

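No member was called by edgeR under any normalization, filter, choice of groups or left-out library, nor by limma. DESeq2 called 30, 830 and 19 genes in Itga8-Cre against Wild Type, Myh11-Cre against Wild Type and Itga8-Cre against Myh11-Cre, where edgeR called 0, and 3 members in the second (Cox6a2: log2 fold change 1.94, adjusted p 0.0492). Without a filter on low counts, 1 gene was called in Myh11-Cre against Wild Type. The causes of these differences were not tested.

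Mouse number as a replicate block gave 1 called gene in Myh11-Cre against Wild Type and 0 members. With the block, the median log2 fold change of the members in Itga8-Cre against Wild Type reversed to -0.28, with Acta1 at -0.65, Myh4 at -0.87, Mylpf at -0.47 and Atp2a1 at -0.67, and it was 1.11 and -1.30 in the other two comparisons. Residuals of same-numbered pairs had r from 0.0328 to 0.396, and 5 libraries resembled their own number most.

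With limma, Acta1 (-0.015), Myh4 (-0.24) and Atp2a1 (-0.13) reversed in Itga8-Cre against Wild Type, and the member medians of the 3 comparisons were 0.05, 1.00 and -0.79.

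Leaving out single libraries, the member medians ran from -0.30 to 1.52 in Itga8-Cre against Wild Type, 1.62 to 3.01 in Myh11-Cre against Wild Type and -2.82 to -0.64 between the Cre genotypes. In the first, Acta1 ran from -0.34 to 1.89, Myh4 from -0.30 to 1.43, Mylpf from -0.19 to 1.89 and Atp2a1 from -0.55 to 1.59, each lowest without Itga8-Cre 3. Differences in myosin shares, in percentage points for Myh4, Myh1 and Myh2, ran from -5.66 to 6.83, -3.04 to 6.22 and -4.41 to 5.02 in Itga8-Cre against Wild Type, from -4.14 to 14.1, -5.58 to 2.46 and -8.78 to 1.68 in Myh11-Cre against Wild Type, and from -15.4 to 2.76, -1.92 to 8.62 and -0.83 to 9.33 between the Cre genotypes.

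The fast myosins of Myh11-Cre 1 and Itga8-Cre 1 rest on 589 and 1764 counts, which limits their shares.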
